A study of Homo sapiens with 6 samples.

Results

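The epithelial and mesenchymal marker genes of A549 cells were examined with and without the MIR21 gene. A549 is a human line that was established from a tumour of the lung, an adenocarcinoma. The 41 genes were taken by name from a list, and comprised 29 epithelial genes (junction proteins, keratins and their regulators) and 12 mesenchymal genes with the transcription factors that go with them. All 41 were found among the 58174 genes of the table. The control group (Ctrl) consisted of 3 polyA RNA-seq libraries of parental A549 cells, and the MIR21-KO group of 3 libraries of A549 cells in which the MIR21 locus had been removed by CRISPR/Cas9 with guide RNAs on either side. Both groups were grown in the same serum-containing medium and harvested 48 h after seeding. MIR21-KO cells were derived from single sorted cells, whereas Ctrl cells were a population that had not passed through such a step. How many clones gave rise to the 3 MIR21-KO libraries is not given in the sources used here, so that clonal differences and effects of the deletion cannot be told apart. Nothing in the labels says whether replicates were separate cultures. The authors speak of 3 independent samples, without saying at which step these were separated. The p-values therefore measure only the spread between these libraries.

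Epithelial cells are held together by adherens junctions, which are built on E-cadherin, by tight junctions that seal the space between neighbours, and by desmosomes that tie the keratin filaments of adjoining cells to each other. In the epithelial-mesenchymal transition, junction proteins and keratins are replaced to varying degrees by N-cadherin, vimentin and fibronectin. Transcription factors of the SNAI, ZEB and TWIST families, which bind E-box motifs in promoters such as that of CDH1, drive this programme, and miRNAs of the miR-200 family hold ZEB factors back. Carcinoma lines often occupy positions between both ends of this scale.

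The deleted gene encodes miR-21-5p, whose mature sequence is shown first, with the seed (bases 2 to 8) in capitals. According to RefSeq (GRCh38.p14) it lies at chr17:59841273-59841294 on the plus strand. For comparison the seeds of the miR-200 family are shown, represented by a member of each of its seed groups. miR-200b-3p, miR-200c-3p and miR-429 share the former seed, and miR-200a-3p and miR-141-3p the latter.
miR-21-5p: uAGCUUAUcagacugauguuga
miR-200b-3p: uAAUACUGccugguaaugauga
miR-200a-3p: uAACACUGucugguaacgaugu

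The heptamer complementary to the miR-21-5p seed, ATAAGCT, was searched on the sense strand in the longest 3′ UTR of each gene's protein-coding transcripts (GENCODE 29, GRCh38). It was found in 1151 of 11646 tested genes with such a UTR (9.88%). Among the 41 members it occurred in VIM, CGN, DSC2 and GRHL2. The sites of the first 3 of these are printed with the heptamer in capitals, because those genes hold it and their Ctrl and MIR21-KO libraries did not overlap. No site was followed by the A that would make it an 8mer. The windows lie at chr10:17237390-17237413 on the plus strand (VIM), chr1:151537502-151537525 on the plus strand (CGN) and chr18:31066858-31066881 and chr18:31063738-31063761 on the minus strand (DSC2).
VIM: tggaataggaATAAGCTctagttc
CGN: atcatcagcaATAAGCTgatagat
DSC2, first site: ggtttttgaaATAAGCTttaaaat
DSC2, second site: tcaacttaaaATAAGCTtattggg

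A match of these letters is a description of the UTR and says nothing of binding. Of the 6 mesenchymal genes called higher, VIM alone held the heptamer, and none of the 6 epithelial genes called lower did. The heptamers of the miR-200 seeds, CAGTATT and CAGTGTT, occurred 6 and 3 times in the 3′ UTR of ZEB1 and 5 and 4 times in that of ZEB2. LOX held them 3 times and 1 time. Either or both also occurred in OCLN, TJP1, DSC2, PKP2, KRT8, KRT80, ESRP1, GRHL2, CDH11, FN1 and SNAI2. CAGTATT and CAGTGTT are present at least once in 19.0% and 21.6% of tested genes, respectively. miRNAs themselves were not measured in these polyA libraries, and MIR21 was listed at 0 in all 6, Ctrl included, so that the deletion could not be checked by its own transcript. The gene that hosts MIR21, VMP1, had 70.7 to 77.8 FPKM in Ctrl and 135 to 149 FPKM in MIR21-KO libraries.

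Levels are given as FPKM, reads scaled to gene length and to library size, so that genes of different length can be compared. The libraries held 10631667 to 14345209 reads, and for a length of 1 kb each read added 0.0731 to 0.0930 FPKM. Tests were made with limma on log2(FPKM + 0.1) for 16006 genes whose mean reached 0.5 FPKM, and a gene was called at a false discovery rate (FDR) under 0.01. Fold changes are MIR21-KO over Ctrl. All log2 fold changes are on the scale with 0.1 added, which understates the change of genes near that level. MIR21-KO replicates 1 and 3 deviated from their group in opposite directions with base composition. Across genes, the rank correlation of the deviation with GC content was 0.386, 0.210 and -0.446 for MIR21-KO replicates 1 to 3, and that with gene length -0.331, -0.0276 and 0.267. For Ctrl replicates 1 to 3 it was -0.196, 0.125 and 0.0941 with GC content, and 0.220, -0.239 and -0.0189 with gene length. Markers of leukocytes and endothelium summed to at most 0.369 and 0.154 FPKM in any library, with PTPRC, CD3E, PECAM1 and CDH5 at 0 to 3 reads. Over the Ctrl and the MIR21-KO libraries CD68 had 9 and 16 reads, TEK 4 and 17, and VWF 0 and 4. CDH5 had 5 and 1 reads and CLDN5 4 and 1. The 7 fibroblast markers summed to 5.41 to 5.85 FPKM in Ctrl and 5.31 to 7.79 in MIR21-KO libraries, most of it from LUM and COL1A1. DCN had 0 to 3 reads in each library and COL1A2 was listed at 0. FAP had 0 reads over the Ctrl and 136 over the MIR21-KO libraries, PDGFRB 6 and 32, and PDGFRA 25 and 24. CDKN2A, which is deleted in A549, was listed at 0 in every library. NQO1 and AKR1B10, both abundant in this line, had 466 to 572 and 675 to 1010 FPKM over both groups. Neither was called, with log2 fold changes from -0.43 to 0.12. In 1 of them every MIR21-KO library was below every Ctrl library. Because bulk RNA was measured, fewer cells of a type and less RNA per cell cannot be told apart.

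Of the 41 genes, 28 passed the filter on low values and were tested. The filter used the mean of all 6 libraries. PKP2, CLDN3 and OCLN had means under 0.5 FPKM in MIR21-KO cells and passed through their Ctrl values. DSC2 had a mean under 0.5 FPKM in Ctrl and passed through its MIR21-KO values. None of the 20 tested epithelial genes was called higher and 6 were called lower, while 6 of the 8 tested mesenchymal genes were called higher and none lower. Of all tested genes, 7.66% were called higher and 8.38% lower. Because the members were chosen with earlier results of these data known, these shares describe the list and are no test of it. The median log2 fold change was -0.51 for the tested epithelial genes, 15 of which lay below 0, and 1.08 for the mesenchymal genes, all 8 of which lay above 0. Over all tested genes the median was -0.02 and the median absolute value 0.35. In 10 of the 20 epithelial genes every MIR21-KO library was below every Ctrl library, which held for 25.2% of all tested genes, and in 1 (DSC2) every MIR21-KO library was above, against 22.8% of all tested genes. In 6 of the 8 mesenchymal genes every MIR21-KO library was above every Ctrl library, and in the other two the groups overlapped. The mesenchymal count was 6 or 7 whichever library was left out. The epithelial count was 3 whichever Ctrl library was left out, 4 without MIR21-KO replicate 2, 7 without replicate 1, and 9 without replicate 3, of which 8 were lower and KRT19 higher. It was 11, 10 lower and DSC2 higher, when trends on GC content and gene length were removed.

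**Figure D1:**
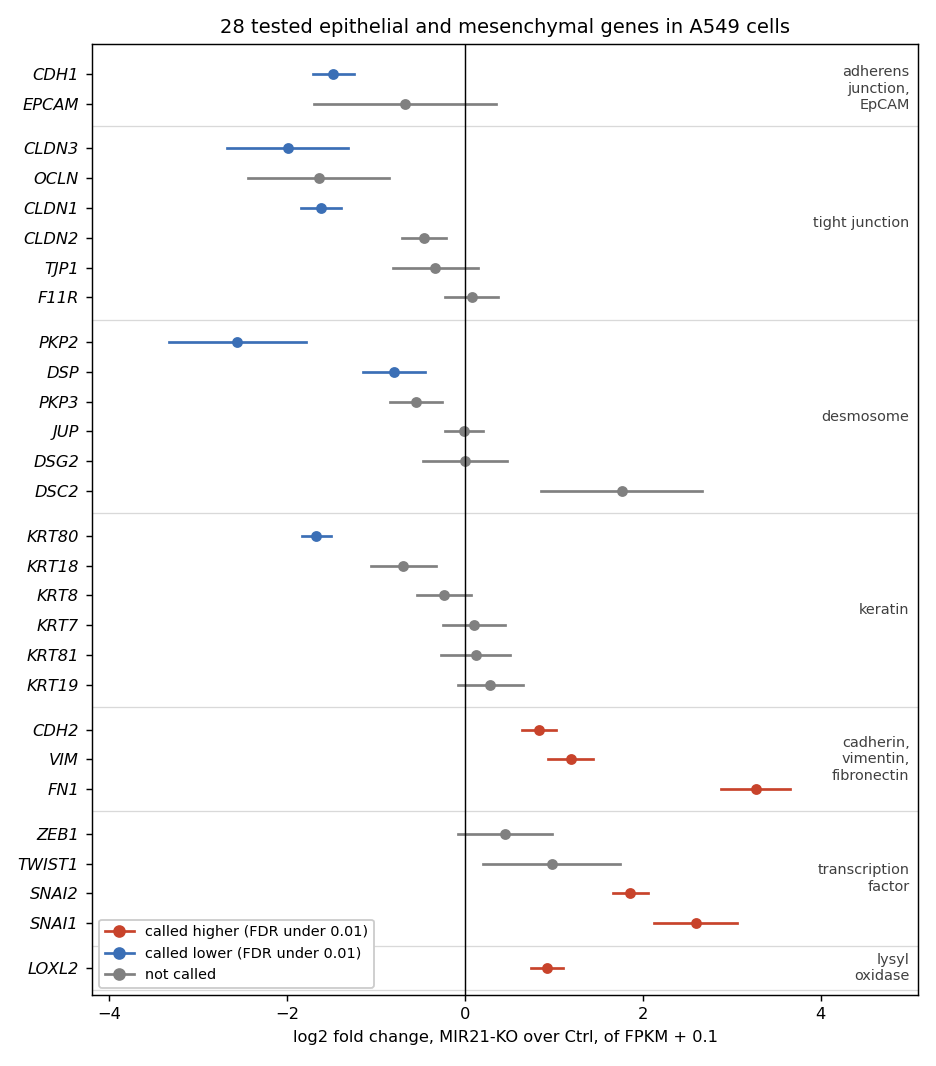
Log2 fold change of MIR21-KO over Ctrl (x axis, FPKM + 0.1) of the 28 tested members, grouped by role (labels at the right). Points are estimates over 3 against 3 libraries and lines 95% intervals; red marks the 6 genes called higher, blue the 6 called lower and grey the 16 not called. The mesenchymal genes all lie to the right of 0, from 0.45 to 3.27, and the epithelial genes spread from -2.56 to 1.76.

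CDH1 encodes E-cadherin, the adhesion receptor of adherens junctions (ENSG00000039068, chr16:68737225-68835548). Its level was 8.13, 7.63 and 8.79 FPKM in Ctrl replicates 1 to 3 and 2.72, 3.02 and 2.85 FPKM in MIR21-KO replicates 1 to 3. The groups did not overlap, and both were tight, with 8.18 ± 0.584 and 2.86 ± 0.148 FPKM (SD, n = 3 each). CDH1 fell with a log2 fold change of -1.48 (95% interval -1.71 to -1.25, FDR = 0.000175 by limma), a 2.86-fold lower mean, and was called in each of 19 alternative analyses. An antisense gene that overlaps it, RP11.354M1.2, was at 2.74 FPKM in Ctrl and 0.504 FPKM in MIR21-KO cells. Whether the authors' counting separated the strands is not stated, and a part of these reads in the CDH1 values was not tested. EPCAM, a surface adhesion molecule of epithelia, was scarce, with 0.624, 1.29 and 1.65 FPKM in Ctrl and 0.962, 0.389 and 0.735 FPKM in MIR21-KO libraries, that is 12 to 57 reads. Its groups overlapped, and the log2 fold change of -0.68 had an interval of -1.70 to 0.35 (FDR = 0.273), so that a change in either direction was not detectable at this depth. Without Ctrl replicate 1 the log2 fold change of EPCAM was -1.05, and without Ctrl replicate 3 or MIR21-KO replicate 2 it was -0.41 and -0.36.

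Of the 6 tested tight junction genes, CLDN1 and CLDN3 were called lower. CLDN1, a claudin that seals the intercellular space (chr3:190305701-190322475), had 32.1, 30.4 and 29.4 FPKM in Ctrl and 9.36, 9.28 and 11.2 FPKM in MIR21-KO libraries. The groups were far apart relative to their SDs of 1.36 and 1.06 FPKM, and CLDN1 fell by 1.62 on the log2 scale (FDR = 0.000122), a call that held in all 19 alternatives. CLDN3, another sealing claudin (chr7:73768997-73770270), had 1.85, 1.90 and 1.95 FPKM in Ctrl and 0.576, 0.449 and 0.242 FPKM in MIR21-KO libraries. These values rest on 4 to 34 reads each, and although the groups did not overlap and the gene was called lower (log2 fold change -1.99, interval -2.67 to -1.31, FDR = 0.00315), the call was lost when any single Ctrl library or MIR21-KO replicate 2 was left out (FDR up to 0.0198). Claudin 2, which forms cation-selective pores, is encoded by CLDN2, with 13.8 ± 0.480 FPKM in Ctrl and 10.1 ± 1.25 FPKM in MIR21-KO cells. All MIR21-KO libraries were below all Ctrl libraries, but the log2 fold change of -0.46 did not pass the threshold (FDR = 0.0169). CLDN2 was called lower in 5 of 19 alternatives, among them the removal of trends on GC content and length (FDR = 0.00111). MORC4 overlaps CLDN2 on the opposite strand and had 66.5 FPKM in Ctrl and 56.2 FPKM in MIR21-KO cells. A part of MORC4 reads in the CLDN2 values was not tested.

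OCLN encodes occludin, a membrane protein of tight junctions. Its level was 1.06, 0.894 and 1.37 FPKM in Ctrl and 0.185, 0.375 and 0.308 FPKM in MIR21-KO libraries. The groups did not overlap and the log2 fold change was -1.65 (interval -2.44 to -0.85), yet its FDR of 0.0108 was just above the threshold. OCLN was called lower in 6 of 18 alternatives, among them the removal of trends on GC content and length and voom on recovered reads (FDR = 0.00901 and 0.000838). TJP1, the scaffold protein ZO-1, had 7.73 ± 0.999 FPKM in Ctrl and 6.23 ± 1.60 FPKM in MIR21-KO cells, and F11R, the junctional adhesion molecule JAM-A, 4.48 ± 0.536 and 4.71 ± 0.444 FPKM. Both overlapped between the groups, with log2 fold changes of -0.33 (interval -0.81 to 0.15) and 0.07 (interval -0.22 to 0.37). For TJP1 it was -0.13 without MIR21-KO replicate 1 and -0.50 without replicate 3.

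The other 4 tight junction genes lay under the filter. CGN, which encodes the junction protein cingulin, had 130 reads over the Ctrl and 23 over the MIR21-KO libraries (0.539 ± 0.132 and 0.0884 ± 0.0307 FPKM), with no overlap between the groups. When genes under the filter were tested as well, its FDR was 0.0141 and it was not called, while with a filter at a mean of 10 reads it was called lower (FDR = 0.00116). CLDN4 had 69 and 91 reads, CLDN7 23 and 15, and TJP3, the scaffold ZO-3, 41 and 23.

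Of the desmosome genes, PKP2 changed most. It encodes plakophilin 2, a plaque protein that links desmosomal cadherins to desmoplakin (chr12:32790745-32896840). Its level was 1.49, 1.28 and 1.15 FPKM in Ctrl and 0.115, 0.128 and 0.175 FPKM in MIR21-KO libraries, or 342 against 38 reads in all. The groups did not overlap, and PKP2 fell 9.41-fold in the means, with a log2 fold change of -2.56 (interval -3.33 to -1.79, FDR = 0.00195). When any single Ctrl library was left out its FDR was 0.0152 to 0.0197, and the call was lost. DSP, which encodes desmoplakin, the protein that anchors keratin filaments to the plaque (chr6:7541575-7586717), had 10.2, 8.60 and 9.55 FPKM in Ctrl and 4.52, 5.32 and 6.52 FPKM in MIR21-KO libraries. The groups did not overlap and DSP was called lower (log2 fold change -0.79, interval -1.14 to -0.45, FDR = 0.00784), but the call was lost in 9 of 19 alternatives, including the omission of any library other than MIR21-KO replicate 3.

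The other 4 desmosome genes were not called. PKP3, plakophilin 3, had 12.2 ± 0.463 FPKM in Ctrl and 8.34 ± 1.27 FPKM in MIR21-KO cells without overlap, and its log2 fold change of -0.55 did not pass (FDR = 0.0155). PKP3 was called lower in 6 of 19 alternatives, including the removal of trends on GC content and length (log2 fold change -0.69, FDR = 0.000219). JUP, which encodes plakoglobin, a catenin shared by desmosomes and adherens junctions, had 25.8 ± 0.0875 and 25.7 ± 2.78 FPKM, with a log2 fold change of -0.01 and a narrow interval of -0.23 to 0.20. DSG2, a desmosomal cadherin, had 20.9, 16.4 and 18.1 FPKM in Ctrl and 14.1, 18.1 and 24.2 FPKM in MIR21-KO libraries. The MIR21-KO libraries thus enclosed the Ctrl range, and the interval of the log2 fold change, -0.48 to 0.47, did not fix a direction.

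DSC2, the partner cadherin desmocollin 2, was the epithelial member with the highest log2 fold change. It had 0.203, 0.173 and 0.195 FPKM in Ctrl and 0.611, 0.997 and 1.13 FPKM in MIR21-KO libraries, which were all above the Ctrl libraries. The log2 fold change was 1.76 (interval 0.86 to 2.67), with an FDR of 0.0137 that missed the threshold. Tested with voom on recovered reads (88 in Ctrl, 435 in MIR21-KO) or among protein-coding genes only, DSC2 was called higher (FDR = 0.000683 and 0.00074), as in 5 of 18 alternatives in all.

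Among the keratins, which form the intermediate filaments of epithelial cells, KRT81 had the highest level of all members. This hair-type keratin had 3079, 3213 and 3101 FPKM in Ctrl and 4087, 3511 and 2733 FPKM in MIR21-KO libraries. The MIR21-KO libraries lay on both sides of the Ctrl libraries, and the log2 fold change of 0.12 (interval -0.27 to 0.51) did not pass. The same ordering of the MIR21-KO libraries, with replicate 1 highest and replicate 3 lowest, was found for KRT7, KRT8, KRT18 and KRT19, keratins of simple epithelia. The 6 keratins together came to 4788, 5032 and 4931 FPKM in Ctrl and 5838, 5057 and 3957 FPKM in MIR21-KO libraries. The GC contents of KRT81, KRT7 and KRT19 were 62.3%, 62.9% and 61.8%. Those of KRT8, KRT18 and KRT80 were 56.2%, 55.7% and 56.8%, and KRT80 did not show this order. The part of base composition in the order was not tested. With the trends on GC content and length removed, the log2 fold changes of KRT81 and KRT7 were -0.03 and -0.01, in place of 0.12 and 0.10, and neither was called. Those of KRT19 and KRT8 were 0.15 and -0.31, in place of 0.29 and -0.23, and also were not called.

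KRT80 was the keratin that was called. This type II keratin, found at desmosomes and in the cytoskeleton (chr12:52168996-52192000), had 34.1, 32.5 and 33.4 FPKM in Ctrl and 10.1, 10.9 and 10.2 FPKM in MIR21-KO libraries. The groups were separated by many times their SDs of 0.847 and 0.389 FPKM, and KRT80 fell 3.20-fold (log2 fold change -1.67, interval -1.83 to -1.51, FDR = 3.7e-05), in each of the 19 alternatives. KRT18, a type I keratin that pairs with keratin 8, had 644, 688 and 688 FPKM in Ctrl and 499, 432 and 335 FPKM in MIR21-KO libraries. All MIR21-KO libraries were lower, but with a log2 fold change of -0.69 the FDR was 0.0153 and KRT18 was not called, whereas it was called lower after the trends were removed (log2 fold change -0.76, FDR = 0.000393) and in 7 of 19 alternatives in all. KRT8 itself had 484 ± 22.3 and 414 ± 61.3 FPKM with overlapping groups (log2 fold change -0.23, interval -0.54 to 0.07, and -0.12 without MIR21-KO replicate 3). The ratio of KRT8 to KRT18, which divides out what both share in a library, was 0.711 to 0.725 in Ctrl and 0.951 to 1.05 in MIR21-KO libraries and did not overlap. KRT19, which lacks the tail of other keratins, had 88.3 ± 4.73 and 109 ± 22.2 FPKM and was not called (log2 fold change 0.29, FDR = 0.206). Without MIR21-KO replicate 3 it was called higher (log2 fold change 0.46, FDR = 0.00809), and without replicate 1 the log2 fold change was 0.16. KRT8 and KRT18 are neighbours whose annotations overlap on opposite strands, KRT7 and KRT81 overlap KRT86, and many pseudogenes of KRT8 and KRT18 exist. On the opposite strand KRT7 also overlaps KRT87P (96.2 FPKM in Ctrl and 140 in MIR21-KO cells) and KRT7-AS (78.3 and 73.1 FPKM). Values of these keratins are thus uncertain to the extent that reads were shared.

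**Figure D2:**
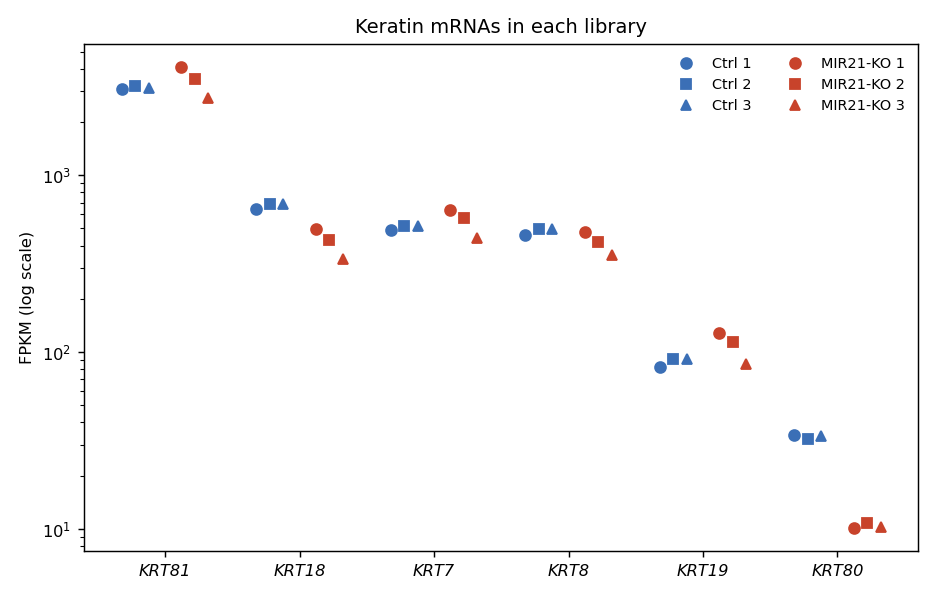
FPKM (y axis, log scale) of the 6 keratin members in each library, with Ctrl in blue and MIR21-KO in red and a symbol for each replicate number. KRT80 and KRT18 were lower in every MIR21-KO than in every Ctrl library, and for the 5 keratins other than KRT80 MIR21-KO replicate 1 was the highest and replicate 3 the lowest of its group.

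All 5 epithelial regulators lay under the filter in both groups. ESRP1 and ESRP2, splicing regulators of epithelial isoforms, had 5 and 3 reads in all Ctrl libraries together and 0 and 2 in MIR21-KO libraries. GRHL2, a transcription factor of epithelial junction genes, had 2 and 1 reads, and OVOL1 and OVOL2, which repress mesenchymal genes, were listed at 0 in every library. At most 5 reads were thus found in a group for any of these regulators, and a difference between the groups was not detectable at this depth.

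Among the mesenchymal genes FN1 showed the greatest rise. It encodes fibronectin, an extracellular matrix glycoprotein (chr2:215360440-215436172). Its level was 22.8, 17.0 and 20.6 FPKM in Ctrl and 164, 188 and 235 FPKM in MIR21-KO libraries. The lowest MIR21-KO library was far above the highest Ctrl library, and the means differed 9.71-fold, with a log2 fold change of 3.27 (interval 2.88 to 3.66, FDR = 7.68e-05). By its fold change FN1 ranked 43rd from the top of the 16006 tested genes. VIM, which encodes vimentin, the intermediate filament protein of mesenchymal cells (chr10:17228259-17237593), had 291, 311 and 295 FPKM in Ctrl and 748, 695 and 607 FPKM in MIR21-KO libraries. VIM rose 2.29-fold (log2 fold change 1.19, interval 0.93 to 1.44, FDR = 0.000517), with no overlap and in all 19 alternatives. A pair of antisense genes overlap VIM. VIM-AS1 went from 53.8 to 117 FPKM and RP11.124N14.3 from 94.3 to 183 FPKM, and a contribution of reads of the opposite strand was not tested.

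CDH2 encodes N-cadherin, the cadherin of mesenchymal and neural cells (chr18:27950966-28177446). It had 24.7, 22.3 and 23.5 FPKM in Ctrl and 38.9, 42.2 and 44.5 FPKM in MIR21-KO libraries, so the parental cells already contained more CDH2 than CDH1 mRNA per length. CDH2 rose 1.78-fold (log2 fold change 0.83, interval 0.64 to 1.02, FDR = 0.000704) without overlap of the groups. The ratio of CDH2 to CDH1 was 3.04, 2.93 and 2.67 in Ctrl and 14.3, 14.01 and 15.6 in MIR21-KO libraries, a 5.08-fold difference between means of 2.88 ± 0.189 and 14.6 ± 0.867. Likewise, the ratio of VIM to KRT18 went from 0.444 ± 0.0130 to 1.64 ± 0.157, so that vimentin mRNA exceeded that of keratin 18 in every MIR21-KO library and in no Ctrl library. CDH11, a cadherin of mesenchyme and bone, had 5 reads in Ctrl and 0 in MIR21-KO libraries.

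**Figure D3:**
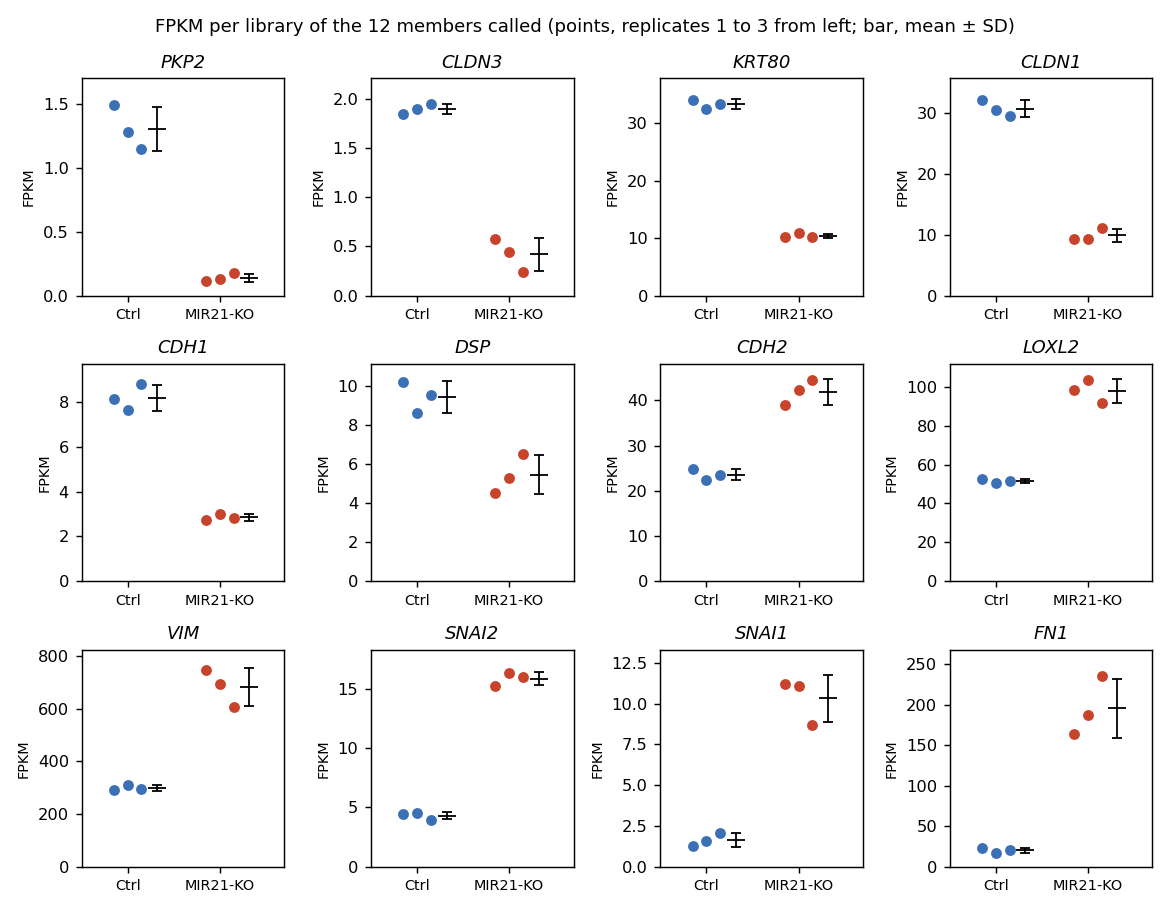
FPKM (y axis, from 0) of the 12 members called, in Ctrl (blue) and MIR21-KO (red) libraries; each point is a library and the black bars show the mean ± SD of 3 libraries. In no panel do the groups overlap: the 6 epithelial genes from PKP2 to DSP were lower and the 6 mesenchymal genes from CDH2 to FN1 higher in MIR21-KO libraries.

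Of the 6 transcription factors, SNAI1 and SNAI2 were called higher. SNAI1, or Snail, a zinc finger repressor of CDH1 (chr20:49982999-49988886), had 1.26, 1.60 and 2.08 FPKM in Ctrl and 11.2, 11.1 and 8.69 FPKM in MIR21-KO libraries. The groups did not overlap, and SNAI1 rose 6.27-fold (log2 fold change 2.60, interval 2.13 to 3.06, FDR = 0.000295). SNAI2, or Slug, a repressor of the same family, had 4.42, 4.51 and 3.98 FPKM in Ctrl and 15.2, 16.3 and 16.0 FPKM in MIR21-KO libraries. It rose 3.68-fold (log2 fold change 1.86, interval 1.66 to 2.06, FDR = 4.95e-05), and both genes were called in all 19 alternatives. The ratio of SNAI2 to SNAI1 was 2.75 ± 0.803 in Ctrl and 1.56 ± 0.253 in MIR21-KO cells, and remained above 1 in each library.

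ZEB1, a zinc finger homeobox repressor of epithelial genes, had 3.63, 2.88 and 3.11 FPKM in Ctrl and 3.16, 4.69 and 5.73 FPKM in MIR21-KO libraries. MIR21-KO replicate 1 fell within the Ctrl range, and the log2 fold change of 0.45 (interval -0.08 to 0.98) was not called (FDR = 0.169). It was 0.68 without MIR21-KO replicate 1 and 0.26 without replicate 3, and neither was called. With the trends on GC content and length removed it was called higher (log2 fold change 0.60, FDR = 0.00904). The antisense gene ZEB1-AS1 overlaps ZEB1 and went from 1.42 to 2.46 FPKM, and a part of its reads in the ZEB1 values was not tested. For ZEB2, the paralog of ZEB1, 307 reads were found in Ctrl and 600 in MIR21-KO libraries (0.327 ± 0.0663 and 0.622 ± 0.149 FPKM). The groups did not overlap, but ZEB2 was under the filter and was not called when tested without it. TWIST1, a basic helix-loop-helix factor, had 1.62, 3.43 and 1.403 FPKM in Ctrl and 4.48, 3.41 and 4.21 FPKM in MIR21-KO libraries, with Ctrl replicate 2 level with the lowest MIR21-KO library, and the log2 fold change of 0.97 was not called (FDR = 0.0599). Without Ctrl replicate 2 it was called. PRRX1, a homeobox factor of mesenchyme, was listed at 0 in every library.

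Lysyl oxidases cross-link collagen and elastin. LOXL2 had 52.4, 50.7 and 51.5 FPKM in Ctrl and 98.4, 103 and 91.4 FPKM in MIR21-KO libraries. It rose 1.90-fold (log2 fold change 0.92, interval 0.74 to 1.10, FDR = 0.000381) with no overlap. LOX, the founding enzyme of the family, was under the filter, with 66 and 143 reads and overlapping groups.

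The E-box bound by SNAI and ZEB factors, CAGGTG, was searched on both strands of RefSeq promoter windows (GRCh38.p14, 250 bases before to 50 after the RefSeq start). The motif occurred in 20.6% of all 35116 windows and in 18.5% of the 13614 windows of tested genes. For 21 of the 41 members a window was given. It was present in 6 of 14 epithelial members (CLDN3, OCLN, TJP1, DSP, DSG2 and DSC2) and in 1 of 7 mesenchymal members (ZEB1). The windows around the motif, in capitals, are printed for the members that were called lower and for OCLN, read in the direction of the gene. They lie at chr7:73770221-73770243 on the minus strand (CLDN3), chr6:7541484-7541507 and chr6:7541577-7541600 on the plus strand (DSP) and chr5:69492505-69492528 on the plus strand (OCLN).
CLDN3, position 37: agccacaggCAGGTGcaggcgca
DSP, position -178: cggcgggcgCAGGTGgggaggggc
DSP, position -85: gaaaccggcCAGGTGtggcctagg
OCLN, position -33: tccgagtttCAGGTGaattggtca

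Positions are counted from the RefSeq start used for the window to the motif's first base. That start can differ from the gene coordinates given above. For DSP the window spans chr6:7541421-7541720, whereas the gene is listed from 7541575, so its motif at -85 lies within the listed gene. TJP1 and DSG2, whose windows held it, and DSC2, whose MIR21-KO libraries were higher, were not called, and the window of CLDN1, which fell, held none. Windows of CDH1, EPCAM, F11R, PKP2, PKP3, KRT7, KRT18, KRT19, KRT80 and KRT81 were not analysed here.

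Further genes of the same structures were counted from longer lists, which were also chosen with earlier results of these data known. Of 48 further epithelial genes 28 were tested, with a median log2 fold change of -0.50. Of these, 11 were called lower and 1 higher, against 8.38% and 7.66% of all tested genes. Among 18 further junction genes, 14 were tested, with a median of -0.29, within the middle of all tested genes (25th to 75th percentile, -0.35 to 0.35). The adhesion receptor CXADR fell from 1.13 ± 0.120 to 0.333 ± 0.0767 FPKM (log2 fold change -1.52), the desmosome-associated PERP from 41.7 ± 0.871 to 24.8 ± 1.26 FPKM (-0.75 on the same scale) and the plakophilin relative PKP4 from 6.04 ± 0.158 to 4.30 ± 0.0965 FPKM (-0.48). NECTIN4, an adherens junction receptor, rose by 1.43 in log2, its levels being 1.32 ± 0.196 and 3.70 ± 0.293 FPKM. The catenin genes CTNNA1 and CTNNB1, which link cadherins to actin, were not called, with log2 fold changes of 0.06 and 0.14.

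Of 20 polarity and epithelial surface genes 13 were tested, with a median log2 fold change of -0.96. Of these, 8 were called lower and none higher, against 8.38% and 7.66% of all tested genes. PARD3, a scaffold of the apical polarity complex, fell from 39.7 ± 1.62 to 16.9 ± 0.404 FPKM (log2 fold change -1.23). The epithelial transcription factor EHF fell from 9.44 ± 0.892 to 4.24 ± 1.11 FPKM, the serine protease inhibitor SPINT2 from 60.0 ± 4.26 to 27.0 ± 5.20 FPKM, and the apical protein CRB3 from 3.04 ± 0.336 to 1.49 ± 0.0871 FPKM. Their log2 fold changes were -1.17, -1.16 and -0.98. Of 10 further keratins only KRT86 reached the filter, and it was not called (0.23). The counts for the further epithelial genes depended on the libraries, since 3 to 5 were called when any single Ctrl library or MIR21-KO replicate 2 was left out.

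Of 37 further mesenchymal genes and regulators 29 were tested, with a median log2 fold change of 0.59. Of these, 13 were called higher and 2 lower, against 7.66% and 8.38% of all tested genes. Of the 23 matrix, cytoskeletal and surface genes, 18 were tested, 11 called higher and 1 lower, with a median of 0.86. TAGLN, an actin-binding protein of smooth muscle, rose from 12.7 ± 0.937 to 64.8 ± 5.98 FPKM (log2 fold change 2.34). The matrix genes TNC and COL5A1 rose from 1.39 ± 0.0752 to 6.02 ± 0.610 FPKM and from 36.9 ± 2.12 to 107 ± 8.52 FPKM, and THY1, a surface glycoprotein of fibroblasts, from 2.28 ± 0.212 to 7.15 ± 1.16 FPKM. Those 3 had log2 fold changes of 2.03, 1.53 and 1.60. The receptor tyrosine kinase AXL, named because it went the other way, fell from 57.9 ± 1.35 to 39.4 ± 3.10 FPKM (-0.56 in log2). S100A4, a calcium-binding protein used as a mesenchymal marker, had 637 ± 43.2 and 343 ± 90.1 FPKM, with all MIR21-KO libraries lower. Its log2 fold change of -0.93 was not called (FDR = 0.0127). COL1A2 was listed at 0 in all libraries.

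Of 14 further regulators of the transition 11 were tested, with a median log2 fold change of 0.19, again within the middle of all tested genes. Among the members, the medians of the desmosome genes (-0.28) and keratins (-0.07) also lay there. SOX4 rose from 22.3 ± 0.505 to 40.8 ± 4.19 FPKM and SOX9 from 9.56 ± 1.09 to 15.3 ± 1.04 FPKM, which is 0.87 and 0.68 in log2. ID2, an inhibitor of basic helix-loop-helix factors, fell from 22.2 ± 1.27 to 8.84 ± 1.23 FPKM (log2 fold change -1.32), while its relatives ID1 and ID3 were not called. In all, 8 of the 11 were not called, ID1 and ID3 among them. The others were 2 called higher and 1 lower, against 7.66% and 8.38% of all tested genes. Of the 11 log2 fold changes, 7 lay above 0 and 4 below, from -1.32 to 0.92. Those of uncalled genes included 0.77 for TWIST2, 0.92 for TCF4 and 0.02 for TCF3.

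**Figure D4:**
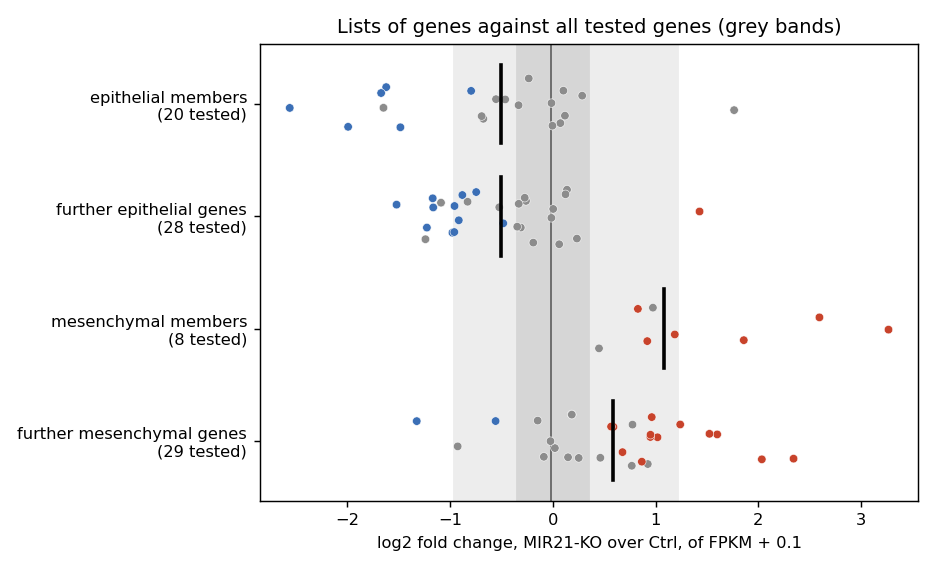
Log2 fold change of MIR21-KO over Ctrl (x axis, FPKM + 0.1) of the tested genes of the epithelial and mesenchymal members and of the further epithelial and mesenchymal lists, each pooled over its roles. Each point is a gene (red called higher, blue called lower, grey not called), vertical black bars are list medians, and the dark and light bands hold the middle of all 16006 tested genes, from -0.35 to 0.35 (25th to 75th percentile) and from -0.96 to 1.21 (5th to 95th). The medians of both pooled epithelial lists lie left of the dark band and those of both pooled mesenchymal lists right of it, which did not hold for each role within them.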

How the data were processed

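PolyA RNA-seq libraries of A549 cells (3 Ctrl, 3 MIR21-KO, grouped by sample title) were strand-specific. The submitters' processing notes name cutadapt 1.14, HISAT2 2.1.0, SAMtools 1.5, featureCounts 1.5.3, edgeR 3.18.1 and hg38, and strand and multi-mapping settings are not given in the sources used here. The authors deposited 1 table with FPKM per library (fragments scaled to the listed gene length and library size). Its columns of the authors' own fold change, p-value and FDR were not used. Whole reads were recovered from FPKM and length for 100% of 139193 values (within 0.01 of a whole number). Totals of 10631667 to 14345209 reads set the precision; read numbers cover counting error only. Exact zeros can stem from the authors' processing.

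Where a gene's mean reached 0.5 FPKM, log2(FPKM + 0.1) was analysed by limma 3.58.1 (R 4.3.3; trend and robust fitting, two-sided, no covariate). The Benjamini-Hochberg method was applied over all 16006 genes, with calls at an FDR under 0.01. The procedure was tested on simulated data, which held no trends on GC content or length such as these libraries show. Alternatives comprised filters, pseudocounts, scalings, voom on recovered reads, a fit without trend and robust fitting, an FDR of 0.05, protein-coding genes only, trends on GC content and length removed (lowess span 0.3), a replicate block and omission of each library. All 41 members were accounted for, with values per library for called ones and for CDH1, EPCAM, CDH2, VIM, FN1 and ZEB1, and up to 4 called genes with the largest change were named from each further list. OCLN, DSG2, DSC2, KRT18, KRT81 and TWIST1 were given per library, and AXL, CTNNA1, CTNNB1, S100A4, TWIST2, TCF3 and TCF4 named, after their values were seen. The members and lists were chosen with earlier results of these data known.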

Additional observations from a re-analysis of the deposited data

How the results depend on the processing

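Of 2568 genes called, the number was 3960 with trends on GC content and length removed, 5114 at an FDR of 0.05, and 768 to 3400 when a single library was left out (895, 922 and 873 for omission of each Ctrl library in turn, 768 for MIR21-KO replicate 2). The 6 calls among epithelial members became 11 with trends removed, with protein-coding genes only, with voom and at an FDR of 0.05, and 3 to 9 without single libraries. The 6 calls among mesenchymal members were 6 to 7 without single libraries. The 12 and 15 calls among further epithelial and mesenchymal genes were 3 to 14 and 10 to 16. For these counts the cause was not tested.

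Replicate numbers are shared between the groups, but deviations of same-numbered libraries did not correlate positively (r = -0.171, -0.0177 and -0.0174), hence they were not taken to pair the samples. With a replicate block, 651 genes were called, 3 epithelial and 5 mesenchymal members, and 1 and 7 genes of the further lists. With trends removed as well, these counts were 1770, 7, 6, 8 and 14. CDH2 lost its call under the block alone (FDR = 0.0101).

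Signs turned only for 5 uncalled members near 0. With trends removed, with and without the block, the log2 fold change was 0.10 for DSG2, -0.011 for KRT7 and -0.029 for KRT81. With median-ratio scaling it was 0.015 for DSG2 and 0.0059 for JUP. Leaving out single libraries gave -0.0055 to 0.16 for F11R (below 0 without Ctrl replicate 3 and, at -0.00044, MIR21-KO replicate 1), -0.20 to 0.18 for DSG2 (0.087 without Ctrl replicate 1, 0.18 and 0.0060 without MIR21-KO replicates 1 and 2), -0.093 to 0.061 for JUP (above 0 without MIR21-KO replicate 3), and, below 0 without MIR21-KO replicate 1, -0.012 to 0.25 for KRT7 and -0.015 to 0.28 for KRT81. CLDN3, EPCAM and 12 of the 13 members under the filter rest on at most 59 reads in any library, and ZEB2, the other one, on 70 to 245.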

Other observations

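FAP, which encodes a surface protease of activated fibroblasts and is among the fibroblast markers given above, was listed at 0 in the 3 Ctrl libraries and had 136 reads over the 3 MIR21-KO libraries (0.430, 0.467 and 0.605 FPKM). Its mean was under the filter on low values, and it was called higher when genes under the filter were tested as well (FDR = 0.0034 by limma). Of the other 6 fibroblast markers, PDGFRB had 6 reads in Ctrl and 32 in MIR21-KO libraries without overlap, and DCN 0 and 5. PDGFRA had 25 and 24 reads, LUM 237 and 219 and COL1A1 1246 and 1489, each with overlapping groups, and COL1A2 was listed at 0. Their part in the rise of the mesenchymal genes was not tested.

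COL3A1, a fibrillar collagen gene under the filter, had 27 reads in Ctrl and 156 in MIR21-KO libraries, and CNN1, calponin of smooth muscle, 9 and 50, with no overlap between the groups in either. Pseudogenes of KRT8 summed to 11.8 ± 1.09 FPKM in Ctrl and 11.04 ± 0.724 FPKM in MIR21-KO cells over 50 listed genes, and those of KRT18 to 2.32 ± 1.19 and 1.45 ± 0.564 FPKM over 67.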
